A study of Mus musculus with 6 samples.

Results

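The alpha-defensins are small cysteine-rich antimicrobial peptides, called cryptdins in the mouse intestine, and 45 of the 54012 genes in the expression table belong to the family. Members were taken by gene name, as every symbol that begins with Defa followed by a digit or a hyphen. Another 6 symbols named in the same rule (AY761184, Gm14851, Gm15284, Gm15293, Gm15299 and Gm15315) head 0 rows of the table. RefSeq gives 5 of these 6 as older names of members, and AY761184 is the GENCODE M21 name of Defa39. Of the 45 members, 17 are named as pseudogenes (Defa-ps) and 28 are not. Each of the 28 has a coding sequence in GENCODE M21.

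RNA was sequenced from the small intestine (tissue given as intestinum) of 6 mice aged 8 to 12 weeks, of which 3 were labelled wild type (WT) and 3 were labelled TLR4ΔIEC. The study asks, by its title, what loss of TLR4 from the intestine does to gene expression; TLR4 is the receptor for bacterial lipopolysaccharide. In such a label IEC usually stands for intestinal epithelial cells. The labels do not give the Cre driver, the strain, the sex or which stretch of the small intestine was sampled. Levels are in TPM, which are corrected for transcript length and sum to 1 fixed total per library, and they are compared between genes on that scale.

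Paneth cells sit at the base of the small intestinal crypts, among the stem cells, and store alpha-defensins in secretory granules. In the mouse the peptides are made as proforms, and the protease matrilysin (Mmp7) cleaves them to the active peptides, which damage bacterial membranes once released into the crypt lumen. Disulfide bonds between conserved cysteines hold a mature cryptdin together, and the cryptdin-related sequences (CRS) are relatives with a mature part richer in cysteine.

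All 45 members lie on chromosome 8 (GRCm38, coordinates from GENCODE M21). The alpha-defensin cluster at 21025545 to 21750000, a stretch of 724.5 kb, holds 41 of them, and 4 pseudogenes (Defa-ps12 to Defa-ps15) lie apart at 19210462 to 19474732. The minus strand carries 7 members. Of the 28 coding members, 20 have 6 cysteine codons, 3 have 7 (Defa25, Defa28 and Defa41) and 5 have 11 (Defa29, Defa38, Defa39, Defa42 and Defa43). RefSeq lists CRS1C names for Defa29, Defa38 and Defa39, all of them among the last 5.

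The coding sequences of 3 members are shown because they stand for the forms over which the family's transcripts were spread: Defa24 and Defa20, the 2 members with the highest mean TPM, and Defa42, the highest of the members with 11 cysteine codons. They run 5′ to 3′ from the start codon, as GENCODE M21 gives them, except that the Defa42 line begins at base 49, and capitals mark the in-frame cysteine codons (TGT or TGC).
Defa24: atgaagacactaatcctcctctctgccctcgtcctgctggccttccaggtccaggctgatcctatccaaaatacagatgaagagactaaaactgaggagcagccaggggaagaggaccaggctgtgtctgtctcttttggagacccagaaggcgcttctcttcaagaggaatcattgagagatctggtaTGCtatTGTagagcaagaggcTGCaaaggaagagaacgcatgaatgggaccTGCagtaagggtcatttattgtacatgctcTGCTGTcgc
Defa20: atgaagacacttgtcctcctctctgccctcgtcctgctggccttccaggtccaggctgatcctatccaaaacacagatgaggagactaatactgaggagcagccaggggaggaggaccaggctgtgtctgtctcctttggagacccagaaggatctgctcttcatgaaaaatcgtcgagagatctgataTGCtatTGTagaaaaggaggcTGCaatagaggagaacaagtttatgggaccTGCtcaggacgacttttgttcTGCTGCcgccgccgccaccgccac
Defa42: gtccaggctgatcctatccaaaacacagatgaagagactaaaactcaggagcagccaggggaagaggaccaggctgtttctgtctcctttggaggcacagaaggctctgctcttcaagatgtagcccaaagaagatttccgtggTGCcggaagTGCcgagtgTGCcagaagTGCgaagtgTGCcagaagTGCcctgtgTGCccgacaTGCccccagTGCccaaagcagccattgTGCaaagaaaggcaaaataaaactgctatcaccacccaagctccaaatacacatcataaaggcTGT
The coding sequences of Defa24 (279 bases) and Defa20 (285 bases) were 82.7% identical. That of Defa42 (348 bases) was 63.6% identical to Defa24 and 62.9% identical to Defa20. In Defa24 and Defa20 the 6 cysteine codons lie in the last part of the sequence, which encodes the mature peptide.

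Many members are near copies of each other, which bears on every value given for 1 gene. The coding sequence of 12 members is identical to that of another: Defa20 and Defa32, Defa2 and Defa33, Defa23 and Defa31, Defa3 and Defa17, Defa42 and Defa43, and Defa37 and Defa36. Defa2 and Defa20 differ by 1 base, G103C, with positions counted from 1 at the first base of the start codon and the Defa2 base first. Defa21 and Defa22 differ by 2 bases, T114G and T204A, with the Defa21 base first. Over whole transcripts, 5 members (Defa2, Defa31, Defa33, Defa37 and Defa42) had no stretch of 100 bases that no other member shares, whereas at least 98% of such stretches were unique in Defa24, Defa26, Defa30, Defa39 and Defa40. Read length and the handling of reads that match several genes are not given in the sources used here, so levels of near-identical members are uncertain one by one and their sums are firmer. Joining coding sequences at 95% identity gave 5 large groups, named here after their highest member: the Defa20 group (Defa20, Defa2, Defa33 and Defa32), the Defa24 group (Defa24, Defa23, Defa3, Defa30, Defa17 and Defa31), the Defa22 group (Defa22 and Defa21), the Defa42 group (the 5 members with 11 cysteine codons) and the Defa37 group (Defa37, Defa5, Defa36, Defa41, Defa34 and Defa35).

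Promoters are shown for 2 members because both forms were lower in the same libraries, as described below, while their upstream sequences differ. RefSeq promoter windows (250 bases before to 50 after the gene start) were on hand for 16 members. The lines give the stretch before the GENCODE M21 start, 5′ to 3′ on the gene's own strand, and capitals mark TATAAA, the core of a TATA box. Defa20 is the window chr8:21509008-21509257 on the plus strand and Defa42 is chr8:21456561-21456767 on the minus strand (GRCm38.p6, 250 and 207 bases).
Defa20: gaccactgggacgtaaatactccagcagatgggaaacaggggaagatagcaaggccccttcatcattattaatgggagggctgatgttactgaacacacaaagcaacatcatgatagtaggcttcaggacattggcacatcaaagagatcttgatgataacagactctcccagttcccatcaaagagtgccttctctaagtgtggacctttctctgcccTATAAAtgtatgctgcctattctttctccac
Defa42: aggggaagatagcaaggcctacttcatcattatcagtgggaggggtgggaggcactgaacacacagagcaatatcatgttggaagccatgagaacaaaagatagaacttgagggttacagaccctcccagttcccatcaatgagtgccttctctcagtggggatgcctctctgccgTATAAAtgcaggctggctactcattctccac
In both, TATAAA began 31 bases before the start. Searched on both strands, TATAAA was present in 15 of the 16 member windows, all but that of Defa28, against 13.6% of 32851 windows of the same length over all genes. CTTTGA, a core of sites for the Wnt effectors TCF and LEF that overlaps no base of TATAAA here, was present in 13 of 16 windows, all but those of Defa38, Defa42 and Defa43, against 16% of all windows. The Defa20 and Defa42 windows were 61.1% identical, while those of Defa42 and Defa43, of Defa20 and Defa2, of Defa21 and Defa22 and of Defa23 and Defa31 were each 100% identical. A match is a match of letters and does not show that a factor binds there.

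Tlr4, the targeted gene, was listed at 0.65, 0.57 and 0.70 TPM in the WT mice and 1.29, 1.22 and 4.81 TPM in the mice labelled TLR4ΔIEC, all of them above WT (log2 fold change 0.92, SE 0.40, limma adjusted p = 0.243). A gene-level value does not show a lost exon, and the epithelium is 1 of several sources of this RNA in whole tissue, so the labels could not be checked by it, and every direction given below is for mice as labelled. TLR4ΔIEC replicate 2 stood apart from the other libraries: it had the fewest genes reaching 1 TPM (12221, where the other 5 had 13197 to 13634) and the highest Rn18s, a ribosomal RNA (12836 TPM, where the other 5 had 3806 to 7032 TPM).

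The family was among the highest expressed of the table. By mean TPM over the 6 libraries, 6 of the 10 highest genes and 11 of the 20 highest were alpha-defensins, with Defa24 first of all genes. The ranking reflects the WT mice most, since in each TLR4ΔIEC library Reg3b was above Defa24. A mean of at least 1000 TPM was reached by 20 members, and 32 members reached the 1 TPM needed to be tested. Of the 28 members not named as pseudogenes, 26 were above 0 in all 6 libraries; the exceptions were Defa31, described below, and Defa25, listed at 1.27 TPM in WT replicate 2 and at 0 in the others. Of the 17 pseudogenes, 4 were above 0 in all libraries and 8 were listed at 0 in all 6. The 13 untested members include 5 that were above 0 in some library. The 2 highest of these, Defa-ps16 and Defa-ps17, were each listed at 5.07 TPM in WT replicate 1 and at 0 elsewhere.

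Summed over the 45 members, the family took 26.5, 25.3 and 28.7% of all TPM in the 3 WT libraries, in replicate order, and 18.4, 5.21 and 6.61% in the 3 TLR4ΔIEC libraries. Each TLR4ΔIEC library was below each WT library, and TLR4ΔIEC replicate 1 lay much closer to WT than replicates 2 and 3 did. Against the WT mean, the 3 TLR4ΔIEC libraries held 0.686, 0.194 and 0.246 times as much. The means were 26.8 ± 1.76% in WT and 10.1 ± 7.26% in TLR4ΔIEC (SD, n = 3 each), so the spread was wider among the TLR4ΔIEC mice. In whole tissue, fewer Paneth cells and less of these RNAs per Paneth cell cannot be told apart. TLR4ΔIEC replicate 2, the library with the fewest genes and the most Rn18s, had the lowest share. With mitochondrially encoded genes and Rn18s taken out of the total, the family's share was 28.1, 26.9 and 30.7% in WT and 19.2, 5.51 and 7.18% in TLR4ΔIEC, with the same order of libraries. The part of those library differences in the result was not tested beyond that. The stacked bars of family share show both the drop in height and the similar make-up of each bar.

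**Figure D1:**
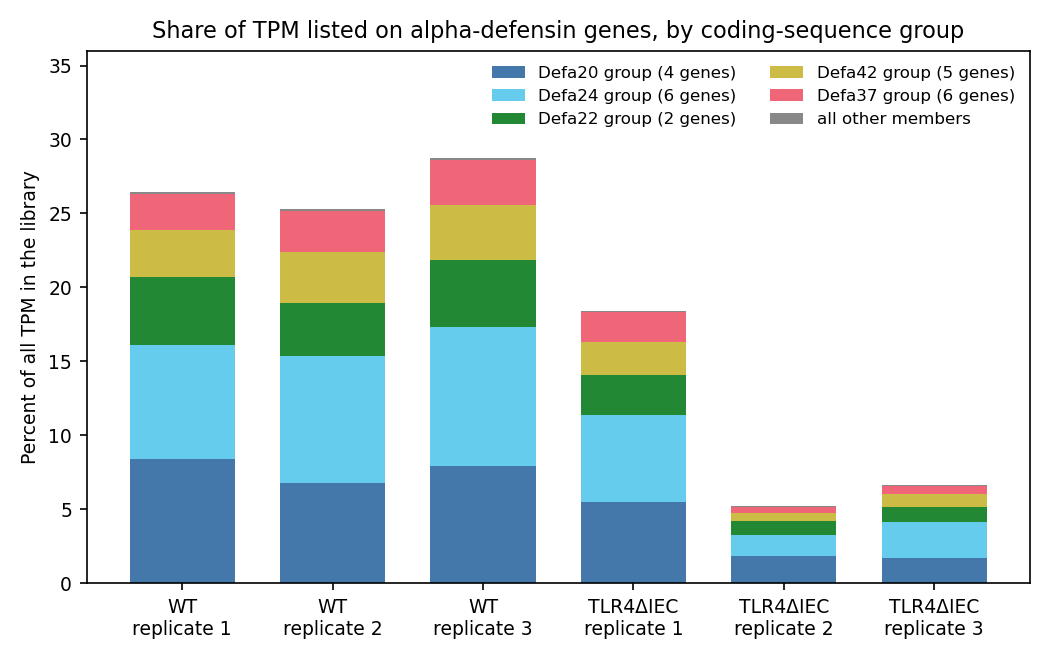
Percent of all TPM listed on alpha-defensin genes in each of the 6 libraries (1 bar per mouse), divided by coding-sequence group. Bar heights are 26.5, 25.3 and 28.7% in WT and 18.4, 5.21 and 6.61% in TLR4ΔIEC, and each of the 5 large groups is present in every bar.

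The groups held overlapping shares of the family in the 2 genotypes. The Defa20 group held 31.6, 26.9 and 27.6% of the family's TPM in the WT mice and 30, 35.9 and 26% in TLR4ΔIEC. For the Defa24 group the percentages were 29.2, 33.9 and 32.7% in WT and 31.6, 26.5 and 36.2% in TLR4ΔIEC. The Defa42 group, with its 11 cysteine codons, held 12.0, 13.5 and 12.9% in WT and 12.2, 10.7 and 13.1% in TLR4ΔIEC. These shares overlap between genotypes in all 3 groups, as they do for the Defa22 group (14.3 to 17.3% in WT and 14.8 to 18.6% in TLR4ΔIEC) and the Defa37 group (9.36 to 11% in WT and 7.82 to 11% in TLR4ΔIEC). In summed TPM, each of the 5 groups was lower in every TLR4ΔIEC library than in every WT library. The 5 highest members together made up 48.2 to 49.4% of the family in WT and 45.1 to 48.7% in TLR4ΔIEC.

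In the test over 13458 genes, 0 of the 32 tested members passed (limma, Benjamini-Hochberg adjusted p under 0.05), where 0.119% of all genes tested passed in either direction and 0.0743% as lower. The members' limma adjusted p ran from 0.101 (Defa26) to 0.851 (Defa-ps18). At an unadjusted limma p under 0.05, 26 of the 32 members were counted, all with lower values in TLR4ΔIEC, against 2.77% of all genes as lower and 21.2% in either direction. A log2 fold change under −1 was found in 28 of 32 members and in 2.62% of all genes. A negative log2 fold change (TLR4ΔIEC minus WT, on log2(TPM + 1)) was found in 31 of 32 members and in 31.9% of all genes. The members' median was −1.58, against 0.16 over all genes. In 25 of 32 members the 3 TLR4ΔIEC libraries all lay below the 3 WT libraries, against 3.53% of all genes, and 7 members overlapped. Many members are near copies measured in the same mice, so they are not separate observations and these counts are a description. The family's smaller share also raises the TLR4ΔIEC values of the genes they are set beside. With 3 mice against 3, an exact permutation test of a single gene could not go below a p of 0.1.

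The result of the test turned on 1 mouse. Without TLR4ΔIEC replicate 1, 24 of 34 tested members passed as lower (limma adjusted p under 0.05), against 0.785% of all genes as lower and 2.74% in either direction, and the members' median was −2.12. The 10 that did not pass were Defa17, Defa31, Defa32, Defa43, Defa-ps1, Defa-ps4, Defa-ps6, Defa-ps16, Defa-ps17 and Defa-ps18. With library weights Defa26 alone passed (adjusted p = 0.0496). Without WT replicate 1 the 1 member past the threshold was Defa-ps4, which then has 2 positive WT values against a group listed at 0 throughout, so nothing is read from it. Without TLR4ΔIEC replicate 2, the library that stood apart, 0 members passed (limma), the members' median was −1.19 and the family share was lower in TLR4ΔIEC, with a difference of −14.3 percentage points. Nothing in the labels sets TLR4ΔIEC replicate 1 apart from the other TLR4ΔIEC mice. Replicate 1 was the highest TLR4ΔIEC library in 19 of the 20 members with a mean of at least 1000 TPM. Leaving it out therefore lowers their TLR4ΔIEC mean and tends to narrow the spread. The calls made without it, here and for single genes below, are thus not separate support for a difference.

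**Figure D2:**
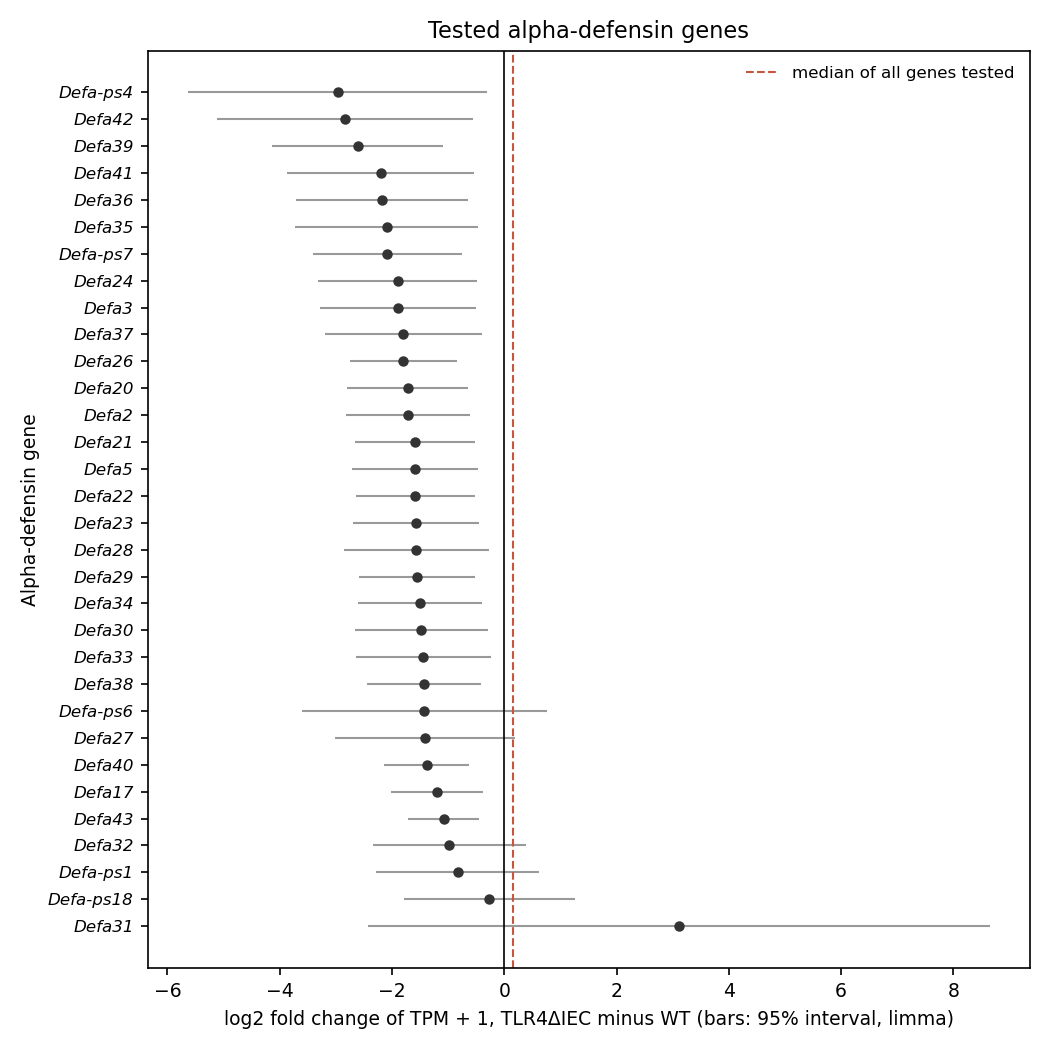
Log2 fold change of each of the 32 tested alpha-defensin genes (points; TLR4ΔIEC minus WT on log2(TPM + 1), 3 mice each) with its 95% interval from limma; the dashed line is the median of all genes tested (0.16). All points but that of Defa31 lie below 0, and the widest intervals belong to Defa31, Defa-ps4 and Defa42.

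The 8 members with the highest mean TPM all encode alpha-defensin proforms of the 6-cysteine form, and each was lower in every TLR4ΔIEC library than in every WT library. Defa24 (ENSMUSG00000064213, chromosome 8, 21734494 to 21735471, plus strand) was listed at 30460.0, 36569.6 and 40176 TPM in the WT mice and 23798, 4583 and 7888 TPM in TLR4ΔIEC. The value in TLR4ΔIEC replicate 1 was several times that in replicates 2 and 3, a pattern that recurs below. Its log2 fold change came to −1.90 (SE 0.60, limma adjusted p = 0.152), and without TLR4ΔIEC replicate 1 it was −2.56 (adjusted p = 0.0267). All of its 100-base stretches are unique among the members.

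Defa20 (ENSMUSG00000095066, 21509258 to 21510237, plus strand) stood at 27993, 24329 and 27799 TPM in the WT mice and 16033, 5604 and 5861 TPM in TLR4ΔIEC. Defa2 (ENSMUSG00000096295, 21378515 to 21379495, plus strand), which differs from it by 1 coding base, stood at 26394, 24743 and 27226 TPM in the WT mice and 16236, 5464 and 5673 TPM in TLR4ΔIEC. The values of the 2 genes were alike library by library, with no overlap between genotypes in either. Their log2 fold changes were −1.72 (SE 0.46, limma adjusted p = 0.117) and −1.71 (SE 0.47, limma adjusted p = 0.121).

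Defa22 (ENSMUSG00000074443, 21162277 to 21163249, plus strand) was listed at 22819, 19204 and 23234 TPM in the WT mice and 14075, 5029.8 and 5319 TPM in TLR4ΔIEC. Defa21 (ENSMUSG00000074447, 21025545 to 21026516, plus strand) was listed at 23099, 16924 and 21914 TPM in the WT mice and 13164, 4679 and 5061 TPM in TLR4ΔIEC. Again replicate 1 was the highest of the TLR4ΔIEC mice and lay below the lowest WT mouse. Both had a log2 fold change of −1.59 (SE 0.45 each), with limma adjusted p of 0.128 for Defa22 and 0.129 for Defa21.

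Defa23 (ENSMUSG00000074446, 21055047 to 21056016, plus strand) stood at 16806, 16121 and 17805 TPM in the WT mice and 11381, 3117 and 5086 TPM in TLR4ΔIEC. Defa33 (ENSMUSG00000094362, 21391811 to 21392791, plus strand) stood at 16318, 12380.0 and 15649.5 TPM in the WT mice and 12091, 4018 and 3230.2 TPM in TLR4ΔIEC. Defa3 (ENSMUSG00000074440, 21287409 to 21288377, plus strand) stood at 13809, 13839 and 15353 TPM in the WT mice and 10373, 2008 and 2752 TPM in TLR4ΔIEC. Of these 3, Defa33 came closest to overlap, with TLR4ΔIEC replicate 1 just under WT replicate 2. The log2 fold changes were −1.58 for Defa23, −1.44 for Defa33 and −1.89 for Defa3, with limma adjusted p of 0.141, 0.178 and 0.150.

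**Figure D3:**
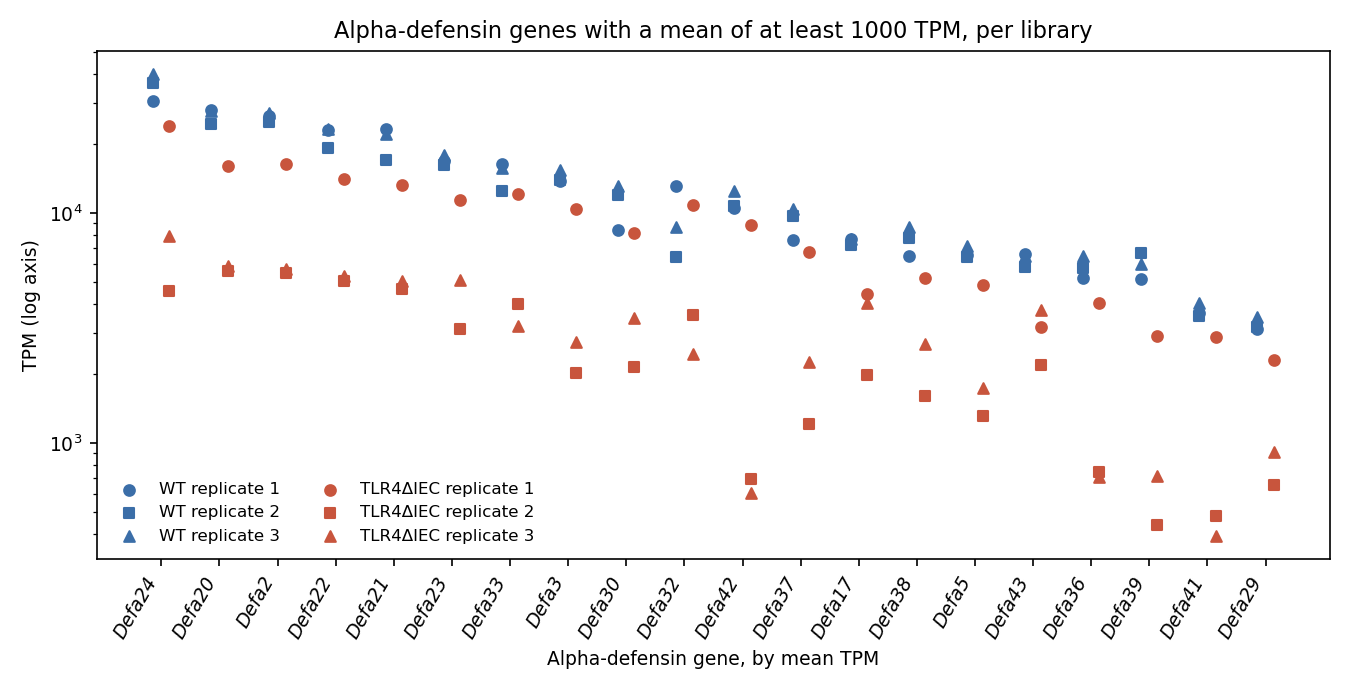
TPM (log axis) of the 20 alpha-defensin genes that averaged 1000 TPM or more, 1 point per library (blue WT, red TLR4ΔIEC, shapes by replicate), ordered by mean TPM. TLR4ΔIEC replicate 1 lies between the WT points and the other TLR4ΔIEC points for most genes, and Defa32 is the 1 gene whose genotypes overlap.

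Across the 20 members with a mean of at least 1000 TPM, 19 were lower without overlap (3.53% of all genes tested), and log2 fold changes ran from −2.84 (Defa42) to −0.98 (Defa32). Relative to the WT mean, TLR4ΔIEC replicate 1 held a median of 0.687 times over the 20 genes, from 0.490 (Defa39) to 1.16 (Defa32). In TLR4ΔIEC replicate 2 the median was 0.197, from 0.0623 (Defa42) to 0.383 (Defa32). In TLR4ΔIEC replicate 3 the median was 0.243, from 0.0542 (Defa42) to 0.598 (Defa43). Replicate 1 was the highest of the TLR4ΔIEC libraries in 19 of the 20 genes, and replicate 2 was below replicate 3 in 15. Of the 12 tested members under 1000 TPM, 6 were lower without overlap, against the same 3.53%.

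Defa32 (ENSMUSG00000094818, 21529032 to 21530012, plus strand) was the exception among the 20. Its values were 13009, 6453 and 8636 TPM in the WT mice and 10850.1, 3587 and 2430.3 TPM in TLR4ΔIEC, so that TLR4ΔIEC replicate 1 was above 2 of the WT libraries. Its log2 fold change came to −0.98 (SE 0.58, limma adjusted p = 0.377). Its coding sequence is that of Defa20, and the sum of the pair was 41002, 30782 and 36435 TPM in the WT mice and 26883, 9191 and 8291 TPM in TLR4ΔIEC. The sum did not overlap between genotypes.

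The 2 most negative log2 fold changes among the 20 belonged to members with 11 cysteine codons, Defa42 and Defa39. The other members of that form were not below the family's median of −1.58. Their values were −1.56 for Defa29, −1.43 for Defa38 and −1.08 for Defa43 (Defa29 and Defa38 also chosen after their values were seen). Defa42 (ENSMUSG00000079114, chromosome 8, 21455445 to 21456560, minus strand; chosen after its values were seen, as were Defa17, Defa26, Defa30, Defa36, Defa37, Defa39, Defa40 and Defa43) was listed at 10448, 10664 and 12408 TPM in the WT mice and 8858, 696 and 606 TPM in TLR4ΔIEC. Replicate 1 was near WT, whereas replicates 2 and 3 were more than an order of magnitude lower. The log2 fold change came to −2.84 (SE 0.97, limma adjusted p = 0.167), and −4.10 without TLR4ΔIEC replicate 1 (adjusted p = 0.00443). Defa43 (ENSMUSG00000079113, 21593375 to 21594508, minus strand), with an identical coding sequence, was listed at 6601, 5792 and 6476 TPM in the WT mice and 3187, 2186 and 3764 TPM in TLR4ΔIEC, with a log2 fold change of −1.08 (SE 0.27, limma adjusted p = 0.111).

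The 2 copies thus differed in how the TLR4ΔIEC libraries were ordered. Within the family, Defa42 held 3.95, 4.22 and 4.32% in WT and 4.81, 1.34 and 0.916% in TLR4ΔIEC, while Defa43 held 2.49, 2.29 and 2.25% in WT and 1.73, 4.20 and 5.69% in TLR4ΔIEC. Where Defa42 was high in its share, Defa43 was low. The sum of both was 17049, 16457 and 18884 TPM in the WT mice and 12045, 2882 and 4369.6 TPM in TLR4ΔIEC, which is 0.690, 0.165 and 0.250 times the WT mean. Those ratios are close to the family's own 0.686, 0.194 and 0.246. No 100-base stretch of Defa42 is unique, and whether reads moved between the 2 copies was not tested.

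Among the other identical pairs, Defa3 and Defa17 also differed in how their shares of the family were ordered. Defa3 held 5.22, 5.47 and 5.34% in WT and 5.63, 3.86 and 4.16% in TLR4ΔIEC, while Defa17 held 2.92, 2.85 and 2.66% in WT and 2.41, 3.79 and 6.15% in TLR4ΔIEC. Defa17 (ENSMUSG00000060208, 21655780 to 21656735, plus strand) stood at 7717, 7212 and 7656 TPM in the WT mice and 4438, 1973 and 4067 TPM in TLR4ΔIEC, a log2 fold change of −1.19 against −1.89 for its copy Defa3. The sum of Defa3 and Defa17 was 0.677, 0.182 and 0.312 times the WT mean in the 3 TLR4ΔIEC libraries. Defa37 and Defa36 had log2 fold changes of −1.80 and −2.17, and their sum was 0.717, 0.129 and 0.200 times the WT mean. Defa20 and Defa32 together gave 0.745, 0.255 and 0.230, and Defa2 and Defa33 gave 0.693, 0.232 and 0.218. The plot of identical pairs sets each copy beside the sum.

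**Figure D4:**
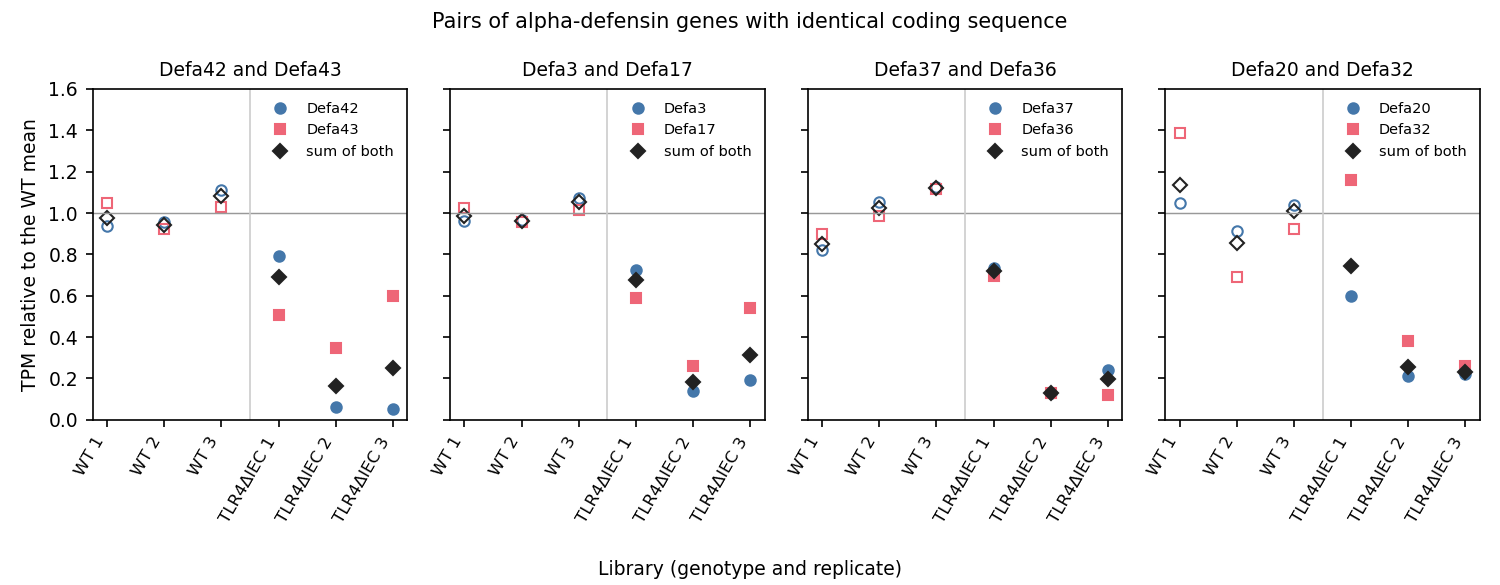
TPM relative to the WT mean in each library (open symbols WT, filled symbols TLR4ΔIEC) for 4 pairs of alpha-defensin genes with identical coding sequences, with the sum of both as diamonds. In TLR4ΔIEC replicates 2 and 3 Defa42 lies far below Defa43, and the sum of that pair is 0.165 and 0.250 times the WT mean.

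Defa31 (ENSMUSG00000074442, 21191614 to 21192549, plus strand) was the 1 tested member with a positive log2 fold change (3.11, SE 2.35, limma adjusted p = 0.492). It was listed at 0 in 5 libraries and at 648 TPM in TLR4ΔIEC replicate 3, so the value rests on 1 library. Its coding sequence is that of Defa23, it has no 100-base stretch of its own, and together the pair stood at 16806, 16121 and 17805 TPM in the WT mice and 11381, 3117 and 5734 TPM in TLR4ΔIEC. A listing at 0 beside a highly expressed copy can be a failed estimate, so no absence is read from it.

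Members whose 100-base stretches were largely unique showed the difference without the help of sums. Of their 50-base stretches, 66.5% were unique in Defa39, 59.8% in Defa26, 62.8% in Defa40 and 47.6% in Defa30. With short reads their levels would be less certain too. Defa39 (ENSMUSG00000058618, 21702519 to 21703645, minus strand), another member with 11 cysteine codons, was listed at 5176, 6688 and 5972 TPM in the WT mice and 2911, 438 and 714 TPM in TLR4ΔIEC. Each TLR4ΔIEC library was below each WT library, and the log2 fold change came to −2.61 (SE 0.64, limma adjusted p = 0.111). As a share of the family it held 1.96, 2.65 and 2.08% in WT and 1.58, 0.840 and 1.08% in TLR4ΔIEC, which do not overlap either. This share was picked out after the values were seen. The shares of Defa42, Defa43, Defa3, Defa17, Defa24, Defa20 and Defa32 overlapped between genotypes. Defa26 was listed at 698, 688 and 796 TPM in the WT mice and 395, 118 and 193 TPM in TLR4ΔIEC (log2 fold change −1.80, SE 0.40, limma adjusted p = 0.101). Defa40 stood at 294, 341 and 376 TPM in the WT mice and 185, 76.2 and 149.9 TPM in TLR4ΔIEC (log2 fold change −1.38, SE 0.32, limma adjusted p = 0.105). Defa30 stood at 8444, 11917 and 13052 TPM in the WT mice and 8204, 2128 and 3474 TPM in TLR4ΔIEC, with replicate 1 just under the lowest WT library (log2 fold change −1.48).

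The pseudogenes were low. Summed, the 17 were listed at 166, 179 and 177 TPM in the WT mice and 217, 15.4 and 67.9 TPM in TLR4ΔIEC, with TLR4ΔIEC replicate 1 above all WT libraries. Defa-ps4 had a log2 fold change of −2.97 (SE 1.13, limma adjusted p = 0.199), the most negative of the tested members at a pseudocount of 1. With the TLR4ΔIEC libraries at 0 its size is set by the pseudocount, at −5.14 with 0.1 TPM and −1.58 with 5 TPM. It was listed at 0, 21.4 and 20.3 TPM in the WT mice and 0 in the 3 TLR4ΔIEC libraries, so WT replicate 1 overlaps TLR4ΔIEC. Defa-ps18, at 9.84, 2.55 and 5.56 TPM in the WT mice and 8.05, 1.01 and 6.96 TPM in TLR4ΔIEC, overlapped throughout (log2 fold change −0.27, SE 0.65, limma adjusted p = 0.851). The sign of Defa-ps18 turned positive under 3 of the alternatives.

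The other listed products of Paneth cells were for the most part lower as well. Of 16 tested, 0 passed (limma adjusted p under 0.05), 13 had negative log2 fold changes (31.9% of all genes) and 10 were lower without overlap (3.53% of all genes), and the median was −1.51 against 0.16 over all genes. Lyz1, lysozyme, which cuts bacterial peptidoglycan, stood at 9133, 7142 and 7956 TPM in the WT mice and 6637, 1314 and 1968 TPM in TLR4ΔIEC. Itln1, intelectin, a lectin for microbial sugars, stood at 4161, 3678 and 3827 TPM in the WT mice and 2417, 749 and 501 TPM in TLR4ΔIEC. Neither overlapped between genotypes, and in both TLR4ΔIEC replicate 1 was the nearest to WT. The log2 fold changes were −1.64 for Lyz1 (SE 0.57, limma adjusted p = 0.174) and −2.00 for Itln1 (SE 0.54, limma adjusted p = 0.118).

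Mmp7, whose protease activates the proforms, was listed at 333, 385 and 413 TPM in the WT mice and 352, 90.5 and 72.6 TPM in TLR4ΔIEC. TLR4ΔIEC replicate 1 was within the WT range, so the genotypes overlapped (log2 fold change −1.50, SE 0.55, limma adjusted p = 0.187). Ang4, a ribonuclease with antimicrobial activity that is named here after its values were seen, stood at 2526, 2251 and 3223 TPM in the WT mice and 1382, 96.1 and 285 TPM in TLR4ΔIEC (log2 fold change −2.97, SE 0.86, limma adjusted p = 0.133). The 3 members with positive values were the lectins Reg3a, Reg3b and Reg3g, of which the last 2 are also made by enterocytes. Reg3b stood at 7737, 17001 and 16693 TPM in the WT mice and 25364, 21633 and 25539 TPM in TLR4ΔIEC (log2 fold change 0.89, limma adjusted p = 0.255), and Reg3g at 3910.2, 8041 and 7951 TPM in the WT mice and 12713, 9908 and 11866 TPM in TLR4ΔIEC (log2 fold change 0.86, limma adjusted p = 0.229). For both, in TPM as listed, the lowest TLR4ΔIEC library was above the highest WT library. TPM sum to a fixed total, of which the family took 25.3 to 28.7% in WT and 5.21 to 18.4% in TLR4ΔIEC. Its smaller share raises the listed values of all other genes in TLR4ΔIEC. That holds for each gene outside the family given as higher here and below. How much of these gaps it makes up was not tested. Whether such genes stay apart with the family left out of the total is not given here.

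**Figure D5:**
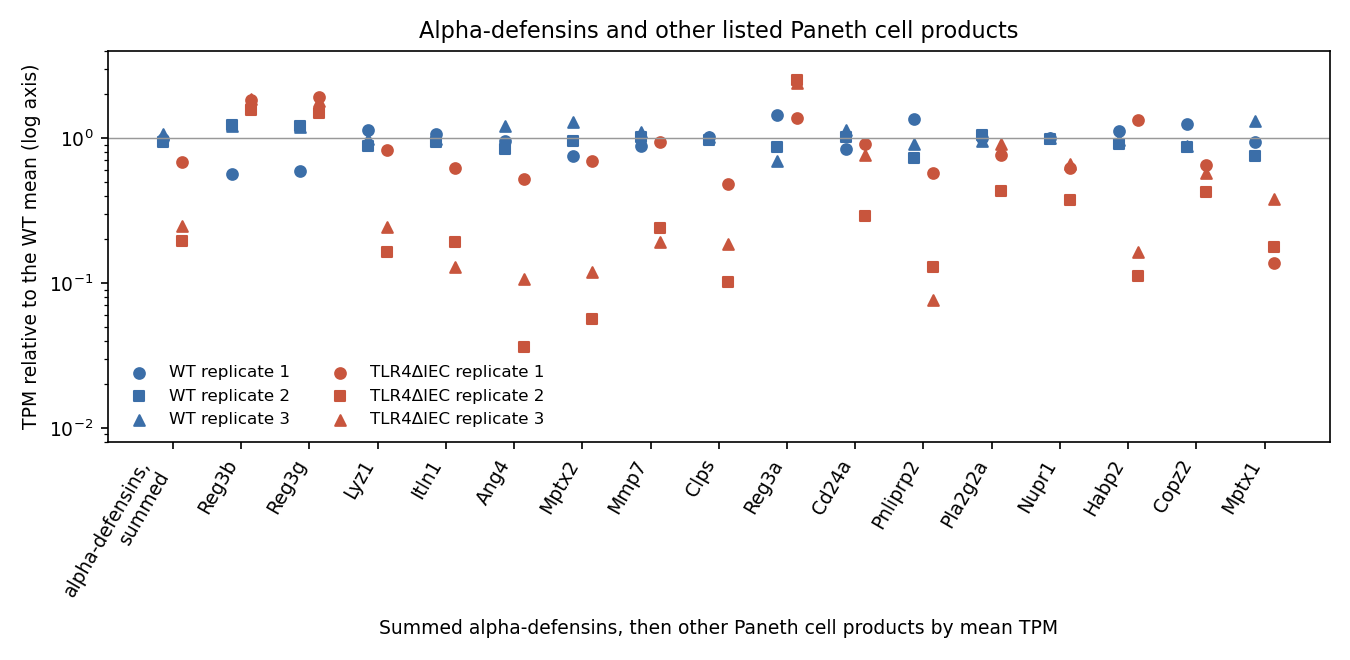
TPM relative to the WT mean (log axis) of the summed alpha-defensins and of 16 other listed Paneth cell products, 1 point per library (blue WT, red TLR4ΔIEC, shapes by replicate). The summed alpha-defensins lie at 0.686, 0.194 and 0.246 in TLR4ΔIEC, Lyz1 lies alongside them, and the TLR4ΔIEC points of Reg3a, Reg3b and Reg3g lie above 1.

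Set against these products, the family's level overlapped between genotypes for some and not for others. Per TPM of Lyz1, the summed alpha-defensins amounted to 29.0, 35.4 and 36.1 TPM in the WT mice and 27.8, 39.6 and 33.6 TPM in TLR4ΔIEC, which overlap. Per TPM of Mmp7 they amounted to 794, 656 and 696 TPM in the WT mice and 524, 575 and 911 TPM in TLR4ΔIEC, which overlap too. Per TPM of Itln1 they amounted to 63.6, 68.7 and 75.1 TPM in the WT mice and 76.2, 69.5 and 132 TPM in TLR4ΔIEC, and per TPM of Mptx2, a pentraxin, to 272, 207 and 172 TPM in the WT mice and 206, 718 and 428 TPM in TLR4ΔIEC. Both overlap, with TLR4ΔIEC replicate 3 high for Itln1 and replicates 2 and 3 high for Mptx2. Per TPM of Ang4 they amounted to 105, 112 and 89.2 TPM in the WT mice and 133, 542 and 232 TPM in TLR4ΔIEC, all 3 of the latter above WT. Per TPM of Reg3b they amounted to 34.2, 14.9 and 17.2 TPM in the WT mice and 7.26, 2.41 and 2.59 TPM in TLR4ΔIEC, all 3 below WT.

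Genes of Paneth cell fate, secretion and bacterial sensing had values of mixed sign. Of 18 listed, 16 were tested and 0 passed (limma adjusted p under 0.05). Positive log2 fold changes were found in 10 and negative ones in 6, with a median of 0.24 against 0.16 over all genes. Without overlap, 0 were lower and 5 were higher, against 3.53% of all genes as lower and 24.1% as higher. The family's smaller share raises these TLR4ΔIEC values too, and the values and counts given here are not rescaled for it. Leaving the alpha-defensins out of the total, 1 of the alternatives, took the median of all genes to a negative value. Xbp1, a regulator of secretory cells, stood at 137, 121 and 112 TPM in the WT mice and 110.0, 115 and 130.4 TPM in TLR4ΔIEC, with overlap. Fzd5, the Wnt receptor, stood at 22.3, 23.6 and 22.4 TPM in the WT mice and 25.7, 32.2 and 28.9 TPM in TLR4ΔIEC (log2 fold change 0.33, limma adjusted p = 0.228). Kcnn4, the potassium channel tied to granule release, stood at 24.4, 30.6 and 23.8 TPM in the WT mice and 30.4, 26.2 and 19.3 TPM in TLR4ΔIEC. Myd88, the adaptor through which TLR4 and other receptors signal, stood at 22.8, 19.2 and 17.5 TPM in the WT mice and 33.4, 26.1 and 29.7 TPM in TLR4ΔIEC, with no overlap (log2 fold change 0.56, limma adjusted p = 0.129). Further genes of the list are given here after their values were seen. Dll4 (4.23 to 5.18 TPM in the WT mice and 7.19 to 11.5 TPM in TLR4ΔIEC), Atg5 and Tcf7l2 were higher without overlap. Some of the genes with negative log2 fold changes were lower in TLR4ΔIEC replicates 2 and 3 than in any WT mouse. Wnt3, a niche signal made by Paneth cells, was listed at 3.76, 3.28 and 3.36 TPM in the WT mice and 3.34, 0.58 and 0.78 TPM in TLR4ΔIEC. Ephb3, which positions Paneth cells in the crypt, was listed at 6.29, 5.35 and 4.81 TPM in the WT mice and 5.38, 2.54 and 2.74 TPM in TLR4ΔIEC. Sox9, a transcription factor that Paneth cells need, was listed at 6, 5.82 and 5.72 TPM in the WT mice and 8.69, 3.79 and 3.63 TPM in TLR4ΔIEC. All 3 overlapped between genotypes through TLR4ΔIEC replicate 1. Many genes of this list are also made by other epithelial cells.

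Other antimicrobial genes were read beside the family. Of 10 listed, 7 were tested and 0 passed (limma adjusted p under 0.05); 3 were higher and 2 lower without overlap, where 24.1% of all genes were higher and 3.53% lower. Saa1, an acute-phase protein that binds bacteria, stood at 82.6, 73.8 and 65.0 TPM in the WT mice and 889, 282 and 301 TPM in TLR4ΔIEC (log2 fold change 2.51, limma adjusted p = 0.0868), and Pglyrp1, which binds peptidoglycan, stood at 286, 193 and 184 TPM in the WT mice and 364, 513 and 366 TPM in TLR4ΔIEC (log2 fold change 0.91, limma adjusted p = 0.112). Neutrophils carry granule defences of their own, but the 8 neutrophil markers summed to 0.23 to 1.65 TPM in the WT mice and 2.08 to 5.34 TPM in TLR4ΔIEC, Mpo and Elane were listed at 0 in all libraries, S100a9 was listed at 0 in 3 of the 6, and Ltf was the 1 marker tested (log2 fold change 0.78, limma adjusted p = 0.185).

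Markers of gut regions and of other cells were read in the same fit. The 6 ileum markers had a median log2 fold change of 1.10, against 0.16 over all genes, with 5 higher without overlap, against 24.1% of all genes. Fabp6, the ileal bile acid binding protein, stood at 2352, 5212 and 7321 TPM in the WT mice and 9526, 34630.4 and 24710.4 TPM in TLR4ΔIEC. Slc51a, a bile acid exporter subunit, stood at 479.5, 381 and 415 TPM in the WT mice and 681, 1119 and 984 TPM in TLR4ΔIEC. Of 6 tested proximal markers, Lct (lactase) and Gata4 passed as lower and S100g as higher, against 0.119% of all genes in either direction. Their median was −1.94, with 4 lower and 2 higher without overlap, against 3.53% of all genes as lower and 24.1% as higher. Lct stood at 67.4, 60.1 and 21.5 TPM in the WT mice and 0.17, 0.87 and 0.52 TPM in TLR4ΔIEC (log2 fold change −4.93, limma adjusted p = 0.0316), and Gata4 at 17.3, 31.4 and 17.0 TPM in the WT mice and 0.23, 1.28 and 2.20 TPM in TLR4ΔIEC (log2 fold change −3.41, limma adjusted p = 0.0494). S100g, a calcium-binding protein, stood at 21.6, 9.47 and 11 TPM in the WT mice and 118, 97.3 and 121 TPM in TLR4ΔIEC (log2 fold change 3.00, limma adjusted p = 0.0350). In TLR4ΔIEC replicate 1, Lct and Gata4 were as low as in replicates 2 and 3, whereas Fabp6 and Slc51a were nearer to WT than in replicates 2 and 3, as the defensins were. The part of gut position in the defensin values was not tested.

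Goblet cell markers had a median of 0.93 against 0.16 over all genes, and 5 of 7 were higher without overlap, against 24.1% of all genes. The 2 with the highest TPM were Zg16 (4444 to 5430.2 TPM in the WT mice and 7678 to 12919 TPM in TLR4ΔIEC) and Tff3 (3262 to 3644 TPM in the WT mice and 4858 to 8135 TPM in TLR4ΔIEC), and 0 of the 7 passed (limma adjusted p under 0.05). Stem cell markers had a median of −0.47 against 0.16 over all genes, with 5 of 6 negative (31.9% of all genes) and 0 past the threshold (limma). Without overlap, 1 was lower and 1 higher, against 3.53% of all genes as lower and 24.1% as higher. Olfm4 stood at 196, 194 and 199 TPM in the WT mice and 165, 39.2 and 47.0 TPM in TLR4ΔIEC, with TLR4ΔIEC replicate 1 the highest of its genotype, as for the defensins. Lgr5, the receptor that marks these cells, was listed at 4.4, 0.63 and 1.38 TPM in TLR4ΔIEC and 2.82 to 3.63 TPM in WT, and Smoc2, Ascl2 and Slc12a2 were likewise highest in replicate 1 (all 4 given after their values were seen). The 1 positive marker was Axin2, a Wnt target, at 21.1 to 27.2 TPM in the WT mice and 34.8 to 40.6 TPM in TLR4ΔIEC. Among 9 enterocyte markers, Apoa4 passed as lower (527, 904 and 454 TPM in the WT mice and 117, 99.8 and 90.7 TPM in TLR4ΔIEC, limma adjusted p = 0.0350). The median was 0.12 against 0.16 over all genes. Without overlap, 3 were lower and 2 higher, against 3.53% of all genes as lower and 24.1% as higher. Besides Apoa4, the lower ones were Fabp1 (361, 797 and 115 TPM in the WT mice and 8.5, 17.4 and 72.3 TPM in TLR4ΔIEC) and Slc5a1, both given after their values were seen. Apoa1 was higher (5408 to 6326 TPM in the WT mice and 7505 to 10101 TPM in TLR4ΔIEC), and Fabp2 overlapped (3243 to 7285 TPM and 2558 to 4125 TPM). The 5 muscle and stroma markers overlapped, with Acta2 at 82.7 to 197 TPM in the WT mice and 55.5 to 157 TPM in TLR4ΔIEC and Col3a1 at 34.1 to 73.2 TPM in the WT mice and 20.2 to 69.2 TPM in TLR4ΔIEC. Among 5 leukocyte markers Jchain was lower without overlap (540.3, 554 and 705 TPM in the WT mice and 219.9, 46.9 and 296 TPM in TLR4ΔIEC) and Cd79a overlapped (6.71 to 16.4 TPM and 1.24 to 46.1 TPM). The part of these cells in the defensin values was not tested.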

How the data were processed

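RNA sequencing of 6 small intestine samples was used. The table deposited by the authors holds TPM for each gene in each library, per the file headers. The tools fastp, HISAT and RSEM and the build GRCm38.p5 are named, without settings, in the submitters' processing notes. Strand settings are not given in the sources used here. TPM keep no read totals, so depth is unknown and intervals from counts could not be had. Per the design text there were 3 mice per genotype.

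The 13458 genes that averaged 1 TPM or more were tested on log2(TPM + 1), a scale that understates the change of low genes, with limma 3.58.1 in R 4.3.3 (lmFit, eBayes with trend, two-sided, with a term for genotype alone), with p-values adjusted over all of them by Benjamini-Hochberg at 0.05. The fit was tested on simulated data, 3 libraries against 3, with changed genes drawn from all genes tested. It recovered 31 of 100 genes changed by 1 log2 unit and 78 of 100 changed by 2, with 0 false calls. The simulated spread was the same in both groups, whereas the family's share varied more among the TLR4ΔIEC mice. Recovery of the members themselves was not simulated. Coding sequences came from GENCODE M21, in which all 45 members were matched by identifier, were aligned in pairs with Biopython 1.88 and joined by average linkage at 95% identity. Promoters came from RefSeq (GRCm38.p6). Alternatives changed the pseudocount, filter, scaling, variance model and library weights, added a replicate block or left out each library.

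Members and gene lists were chosen with earlier results of these data known. Genes were named by rule: members past the threshold, the 8 highest, those with the extreme fold changes, the 2 lowest tested and 2 highest untested, those overlapping among the 12 highest, and in each other list the genes past the threshold and the 2 highest (4 and Mmp7 for Paneth lists). Defa17, Defa26, Defa29, Defa30, Defa36, Defa37, Defa38, Defa39, Defa40, Defa42 and Defa43 were chosen after their values were seen. So were Ang4, Mptx2, Dll4, Atg5, Tcf7l2, Wnt3, Ephb3, Sox9, Lgr5, Smoc2, Ascl2, Slc12a2, Fabp1 and Slc5a1. No list was tested as a set. Proteins were to be shown by that rule, and coding sequences are given instead.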

Additional observations from a re-analysis of the deposited data

How the results depend on the processing

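Across the alternatives run, the members' median log2 fold change stayed negative, from −2.12 without TLR4ΔIEC replicate 1 to −1.19 without TLR4ΔIEC replicate 2, and the difference in family share (TLR4ΔIEC minus WT) ran from −20.9 to −14.3 percentage points, against −16.8 with all libraries. Counts of calls by limma did not hold as well. Genes past the threshold numbered 16 with all libraries, 0 with no filter, 7 with a filter of 5 TPM and 136 with array weights. With each library left out in turn the count ran from 0 to 367, the latter without TLR4ΔIEC replicate 1. It was 32 without WT replicate 1, 0 without WT replicate 2, 3 without WT replicate 3, 0 without TLR4ΔIEC replicate 2 and 5 without TLR4ΔIEC replicate 3. Alpha-defensin genes past the threshold numbered 1 with array weights, and from 0 to 24 with a library left out, 24 being without TLR4ΔIEC replicate 1 and 1 without WT replicate 1. The cause was not tested.

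The replicate numbers are not said to pair the samples. Same-numbered deviations correlated at −0.037, 0.035 and 0.118, which does not settle whether any samples were paired. A replicate block left 1 gene and 0 members past the threshold, with a member median of −1.58. The log2 fold change of Defa-ps18 turned to 0.37 with array weights, 0.12 without WT replicate 1 and 0.43 without TLR4ΔIEC replicate 2, and ran from −0.68 (without WT replicate 2) to 0.43 with a library left out. Scaling moved the median of all genes from 0.16 to −0.01 (median-of-ratios), 0.02 (quantile) and −0.10 (alpha-defensins left out of the total), and the members' median to −1.78, −1.55 and −1.88. Depth is unknown, so limits of detection for members near 0 TPM could not be set.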
